A study of Rattus norvegicus with 23 samples.

Results

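The comparison set livers of rats that received a selenium-enriched diet together with the drug combination called FOLFOX against livers of untreated rats, to ask what the combined treatment changed in liver gene expression. It used 16 of the 23 libraries of a study that models portosinusoidal vascular disease, in which the finest portal and sinusoidal vessels of the liver are diseased, in rats. The members were all libraries labelled Selfox (n = 10) and all labelled Control (n = 6), every one made from poly(A)-selected RNA of whole liver of Sprague Dawley rats. Selfox rats ate the enriched diet for 8 weeks and in that time received 8 weekly intravenous injections of oxaliplatin (3 mg/kg), 5-FU (5-fluorouracil, 25 mg/kg) and folinic acid (45 mg/kg). Control rats had no treatment, so the diet, the 3 drugs and the injections came together and cannot be told apart. One more group served as another reference: the 7 LPS libraries came from rats with a surgically placed portal catheter that were given 1 mg/kg of bacterial lipopolysaccharide 2 times per week for 8 weeks. The labels give no sex, age, hour or date of collection and do not state that each library is another rat, so p-values measure the spread between libraries.

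Oxaliplatin forms platinum adducts on DNA, which stall replication and activate the transcription factor p53. The active metabolite of 5-FU blocks thymidylate synthase, the enzyme that makes thymidylate for DNA, and folinic acid is a folate that strengthens this block. In patients oxaliplatin is known for damage to the sinusoids, the fenestrated capillaries of the liver that are lined by endothelium, patrolled by Kupffer cells (the resident macrophages) and wrapped by stellate cells. Selenium is built as selenocysteine into selenoproteins, among them glutathione peroxidases, and compounds that stress the thiols of a cell activate the transcription factor NRF2.

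Levels are given as CPM, the read count of a gene relative to the TMM-scaled total of its library, and differences as log2 fold changes ± SE. Adjusted p-values are from edgeR's quasi-likelihood test with Benjamini-Hochberg adjustment over all 15079 genes tested, and a gene is said to have risen or fallen where its adjusted p was under 0.05. Total counts ran from 31.9 to 53.8 M in Control and from 65.1 to 74.8 M in Selfox, so depth differed between the groups. Albumin, the defining hepatocyte transcript, took 11.7% to 16.4% of counts in Control and 7.74% to 11.1% in Selfox.

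The first principal component of the 16 libraries (30% of the variance) separated the groups, with controls at -50.81 to -22.58 and Selfox at 6.16 to 42.64. On the second (13.8%), Selfox 3, 4, 5 and 8 lay at 22.46 to 38.87 and the other 6 Selfox libraries at -36.60 to -12.19. Control 55 lay at -14.02, against 1.82 to 21.74 in the other controls. In Control 55 the clock gene Dbp (log2 CPM 5.10) exceeded Arntl (2.60), whose transcript peaks at the opposite phase, in Selfox 8 the 2 were level (3.35 each), and in the other 14 libraries Arntl was higher. Collection hour is not in the labels, and its part in the results was not tested. The labels give no reason to group Selfox 3, 4, 5 and 8. Because they were singled out after the values were seen, they enter no test of their own, and results against Control that rest on them are given with and without them.

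**Figure D1:**
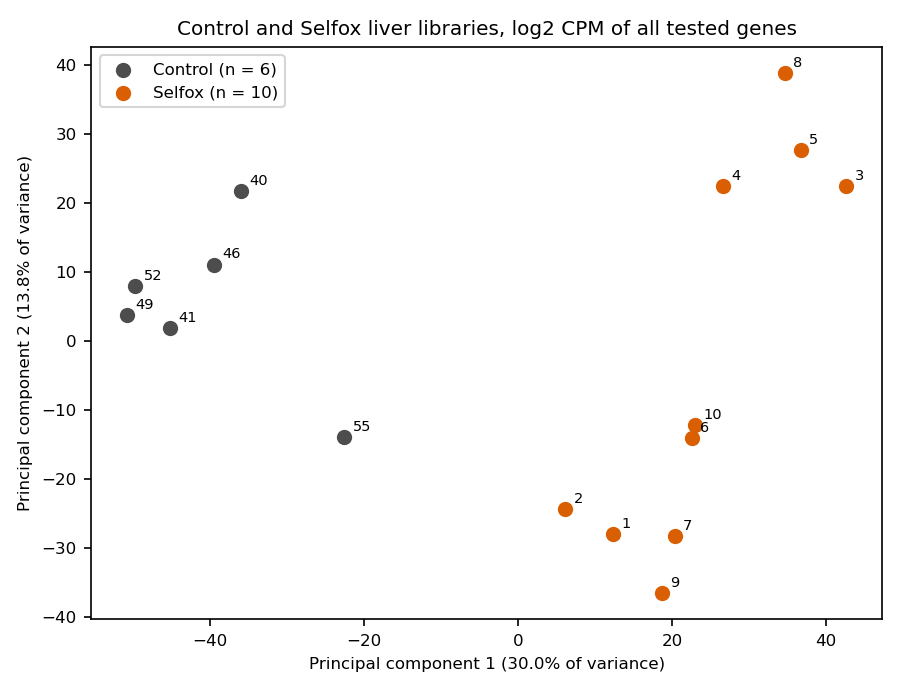
Principal components 1 and 2 of log2 CPM over all tested genes for the 6 Control and 10 Selfox libraries, each point 1 library with its replicate number. Component 1 separates the groups, Control 55 is the control nearest to Selfox, and Selfox 3, 4, 5 and 8 lie at 22.46 or more on component 2 while the other 6 Selfox libraries lie at -12.19 or less.

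Of 15079 genes 4385 (29.1%) differed between Selfox and Control. Rises made up 14.2% of all tested genes and falls 14.9%, and the median log2 fold change over all tested genes was 0.012. At least 2-fold differences numbered 503 rises and 284 falls, and at least 4-fold 125 and 47. In 741 genes (4.91%) no Selfox library overlapped the controls. These shares are the background for the gene lists that follow, which held 1137 tested entries in 55 lists. Among lists of at least 10 tested genes, the largest shares of risers were in lipogenesis (15 of 20), contractile genes (9 of 14) and nuclear genes of oxidative phosphorylation (17 of 28). Fallers made up the largest shares in RNA polymerase I and ribosome biogenesis (21 of 29), Kupffer cell markers (12 of 17) and B and plasma cell markers (6 of 10). Without Control 49 the risers of oxidative phosphorylation numbered 11. B and plasma cell fallers numbered 3 without Control 52 and 2 without Selfox 3, 4, 5 and 8, where the risers of lipogenesis numbered 9.

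**Figure D2:**
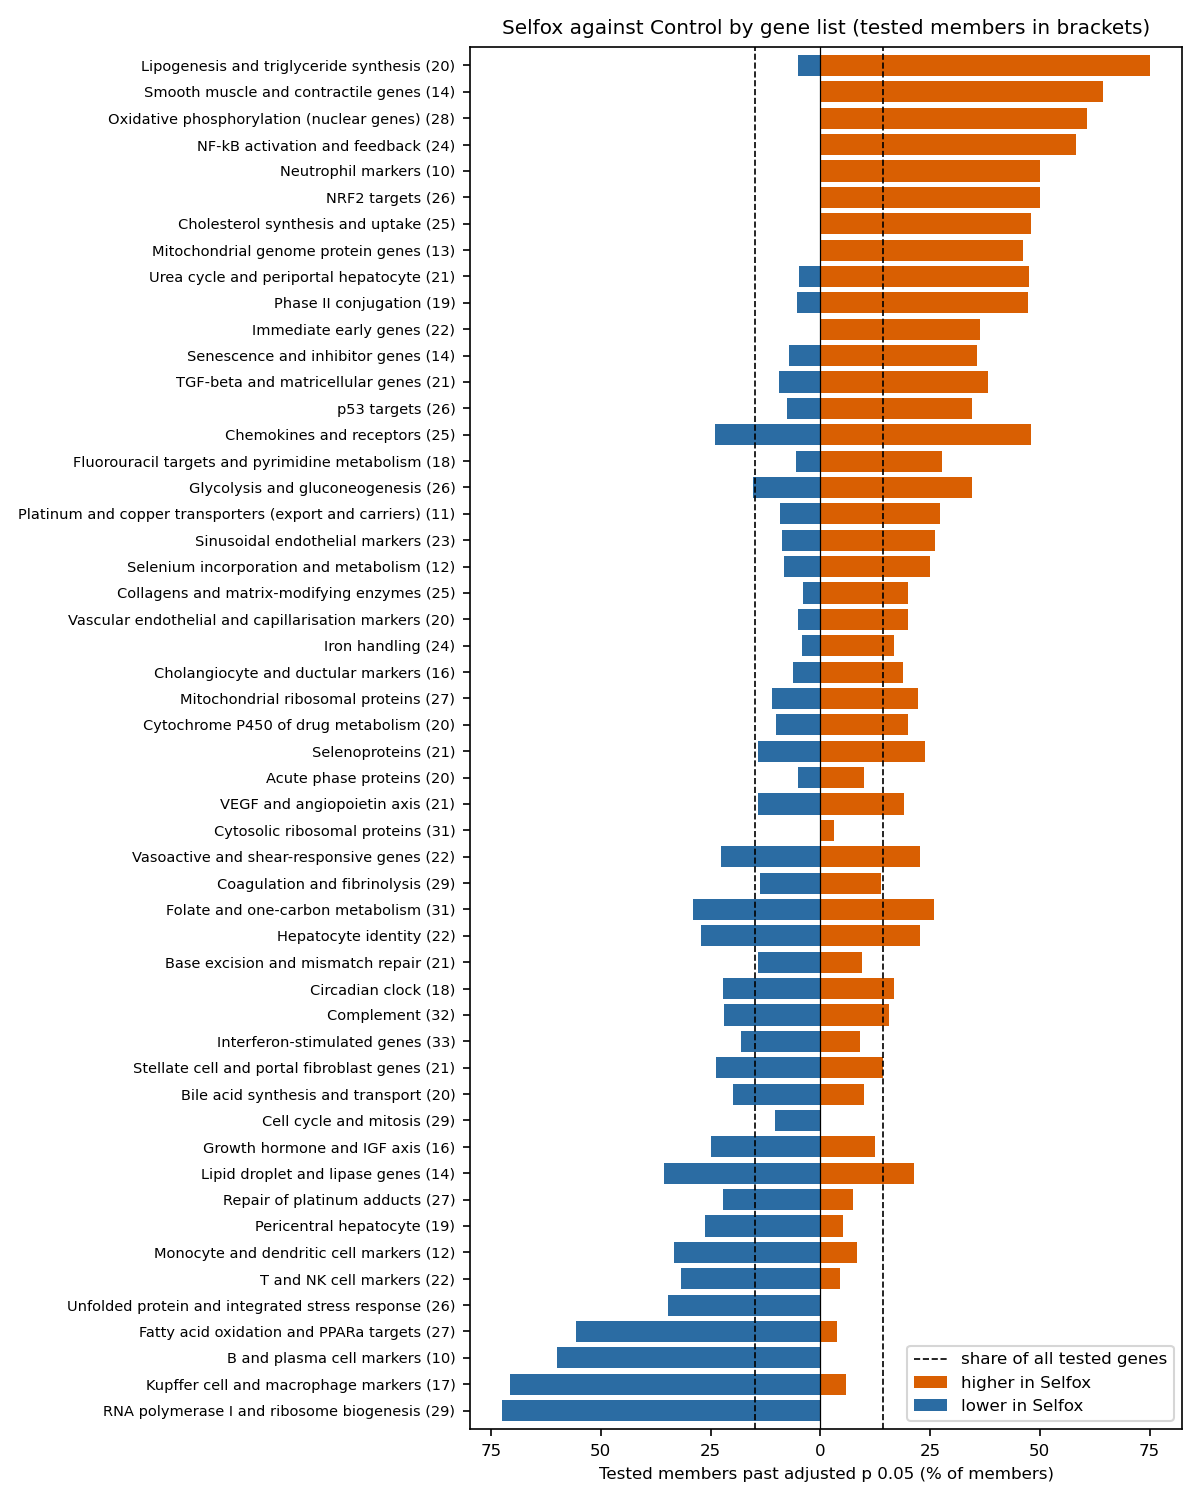
Share of each list's tested members that were higher (right, orange) or lower (left, blue) in Selfox than in Control at an adjusted p under 0.05, for lists with at least 10 tested members. Dashed lines mark the shares over all tested genes, 14.2% higher and 14.9% lower; RNA polymerase I and ribosome biogenesis (21 of 29 lower) and lipogenesis (15 of 20 higher) are at the opposite ends.

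Some genes that take up, target or inactivate the drugs changed. Of 18 tested genes of fluorouracil targets and pyrimidine metabolism 5 rose and 1 fell (median log2 fold change 0.29), and 8 rose with limma voom. The 33.3% called lay near the 29.1% of all genes. Tyms, which encodes thymidylate synthase, the target of 5-FU, lay at 3.82 to 4.83 CPM in Control (median 4.22) and 5.79 to 9.56 CPM in Selfox (median 7.24). All 10 Selfox libraries exceeded every control, a difference of 0.80 ± 0.11 (adjusted p = 1.59e-05), and Tyms was also higher than in LPS (0.74 ± 0.10, adjusted p = 3.04e-05). Tk1, the thymidine kinase that salvages thymidine, lay at 4.47 to 8.12 CPM in Control (median 6.41) and 7.31 to 12.7 CPM in Selfox (median 10.2). Its rise was 0.68 ± 0.14 (adjusted p = 8.74e-04), with 9 of 10 Selfox libraries above the controls. Rrm2b, the p53-induced ribonucleotide reductase subunit, rose by 0.58 ± 0.11 and Upb1, the last enzyme of pyrimidine breakdown, by 0.72 ± 0.10 (adjusted p = 1.59e-05). Tk1, Rrm2b and Upb1 did not differ from LPS at the threshold (adjusted p of 0.0521, 0.263 and 0.133). Rrm2b and Upb1 were also higher in LPS than in Control (0.39 and 0.51). Of the 18 genes 2 were higher in Selfox than in LPS and 1 was lower. The faller was the uridine kinase gene Uck1 (-0.45 ± 0.08, adjusted p = 2.60e-04). Dpyd, which encodes the enzyme that starts 5-FU breakdown and was looked at after its value was seen, lay at 163 to 207 CPM in Control and 174 to 216 CPM in Selfox (0.07 ± 0.06, adjusted p = 0.466).

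For platinum transport, 25.0% of import genes and 36.4% of export and carrier genes were called, against 29.1% of all genes. Of the 4 import genes tested 1 fell. This was Slc31a2, a copper transporter (-0.38 ± 0.13, adjusted p = 0.0299), a call that was lost without Control 41, 46, 49 or 55 or without Selfox 3 or 5, and also without Selfox 3, 4, 5 and 8, without Control 55 and Selfox 8 together, and with no filter. Of 11 export and carrier genes 3 rose and 1 fell (4 fell without Selfox 3, 4, 5 and 8), with Atox1, the copper chaperone that also binds platinum, at 0.32 ± 0.08 (adjusted p = 0.00329) and Commd1 at 0.21 ± 0.06. The faller was the metallothionein gene Mt1, which lay at 31.9 to 243 CPM in Control (median 111) and 13.2 to 119.7 CPM in Selfox (median 36.9) (-1.37 ± 0.45, adjusted p = 0.0272). Its ranges overlapped, its call was lost without Control 40, 49 or 52 and with Control and Selfox fitted alone, and without Selfox 3, 4, 5 and 8 the difference was -2.23 (adjusted p = 0.00164).

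Folate and one-carbon genes split into risers and fallers. Of 31 tested members 8 rose and 9 fell (median 0.02), a larger share in each direction than over all genes. Aldh1l1, which encodes the formyltetrahydrofolate dehydrogenase that turns a folate carbon into carbon dioxide, lay at 114 to 146 CPM in Control (median 124) and 224 to 562 CPM in Selfox (median 367). No Selfox library overlapped the controls (1.63 ± 0.16, adjusted p = 3.94e-07), and the LPS libraries lay at 162 to 292 CPM, above the controls and overlapping Selfox (Selfox minus LPS 0.81 ± 0.14, adjusted p = 5.61e-04). The methyltransferase gene Bhmt2, whose product remethylates homocysteine, rose by 0.68 ± 0.07 and the sarcosine dehydrogenase gene Sardh by 0.77 ± 0.11, each with all 10 Selfox libraries above the controls. Both were also higher in LPS than in Control (0.44 and 0.73). Bhmt2 was higher in Selfox than in LPS (0.24 ± 0.06, adjusted p = 0.0135), and Sardh was not told apart (0.04 ± 0.10, adjusted p = 0.841).

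The fallers included the serine synthesis genes. Phgdh, the first enzyme of serine synthesis, lay at 1.68 to 31.2 CPM in Control (median 9.13) and 0.891 to 4.96 CPM in Selfox (median 1.3). It fell by 2.85 ± 0.46 (adjusted p = 1.27e-04), with Control 41 inside the Selfox range. Psat1, the next enzyme of that pathway, fell by 1.69 ± 0.30 (adjusted p = 2.61e-04), with every Selfox library (3.77 to 8.2 CPM) below every control (8.29 to 37.4 CPM). Mat2a, which makes the methyl donor S-adenosylmethionine, lay at 65.9 to 80.9 CPM in Control (median 71.3) and 28.6 to 47.6 CPM in Selfox (median 39.6). All 10 Selfox libraries were below the controls (-0.93 ± 0.09, adjusted p = 5.77e-07) and also lower than LPS (-0.49 ± 0.09, adjusted p = 7.11e-04). Mat1a, the other gene of this enzyme in the list, was looked at after its value was seen. Its mean was far higher, at 3543 CPM in Control and 3353 CPM in Selfox, and it did not pass (-0.08 ± 0.11, adjusted p = 0.619). Selfox and LPS levels of Phgdh were not told apart at the threshold (-1.22 ± 0.44, adjusted p = 0.0661).

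**Figure D3:**
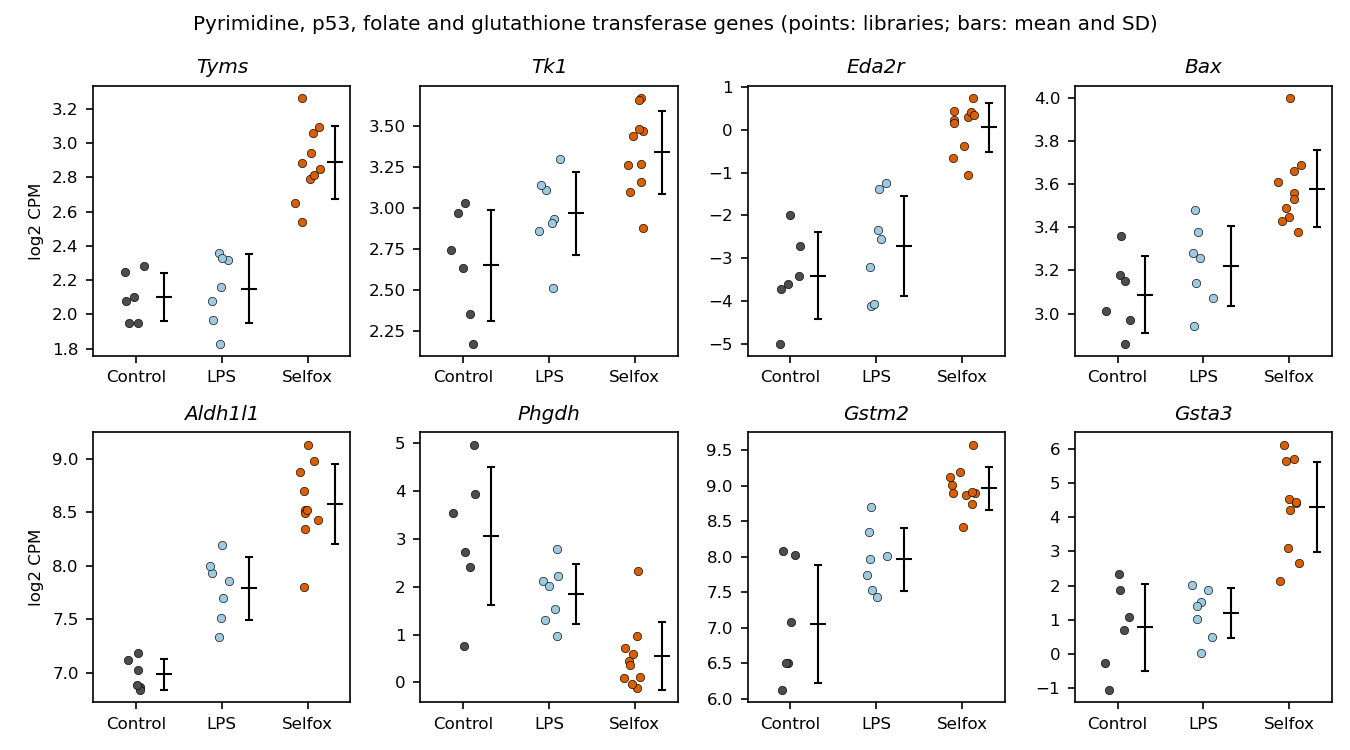
Log2 CPM of 8 genes in Control (grey), LPS (blue) and Selfox (orange), each point 1 library, with the mean and SD of each group as a bar. Tyms, Bax, Eda2r, Aldh1l1 and Gstm2 are higher in all 10 Selfox libraries than in every control, Tk1 and Gsta3 in 9 of 10, and Phgdh is lower in 8 of 10.

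Selenoprotein genes changed in both directions. Of 21 tested 5 rose and 3 fell (median 0.09). Risers numbered 3 without Control 49, and without Selfox 3, 4, 5 and 8 there were 3 risers and 1 faller. Selenok, a selenoprotein of the endoplasmic reticulum, lay at 30.8 to 61.2 CPM in Control (median 42.4) and 53.7 to 74.3 CPM in Selfox (median 60.0), a rise of 0.50 ± 0.11 (adjusted p = 0.00167) with overlapping ranges. The gastrointestinal glutathione peroxidase gene Gpx2 rose by 1.78 ± 0.49 (adjusted p = 0.00912) from low levels (0.224 to 0.69 CPM in Control, 0.393 to 3.25 CPM in Selfox), a call that limma voom did not make. Dio1, the deiodinase that activates thyroid hormone, fell by 0.55 ± 0.13 (adjusted p = 0.00212). Both of the main hepatic selenoprotein transcripts, looked at after their values were seen, did not pass. Gpx1, the cytosolic glutathione peroxidase, differed by 0.28 ± 0.18 (adjusted p = 0.248) and Selenop, the plasma carrier of selenium, by 0.06 ± 0.08 (adjusted p = 0.617). Among 12 genes of selenium incorporation and metabolism 3 rose and 1 fell, and the 33.3% called lay near the 29.1% of all genes. Lrp2, an endocytic receptor that takes up selenoprotein P in kidney, lay at 9.68 to 19.1 CPM in Control (median 12.3) and 19.9 to 42.4 CPM in Selfox (median 31) and rose by 1.16 ± 0.18 (adjusted p = 9.73e-05). Scly, the lyase that frees selenium from selenocysteine, rose by 0.59 ± 0.12, and Secisbp2l, related to the factor that reads selenocysteine codons, by 0.80 ± 0.15. In each of these 3 genes every Selfox library lay above every control. All 3 were also higher in LPS than in Control (0.72, 0.52 and 0.60). They did not differ between Selfox and LPS at the threshold (adjusted p of 0.0811, 0.726 and 0.385). Of the 21 selenoprotein genes 0 were higher in Selfox than in LPS and 1 was lower. The same counts held for the 12 genes of incorporation and metabolism.

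Targets of NRF2 rose in 13 of 26 tested and fell in 0 (median 0.44). Of these 26 genes 9 were also higher in Selfox than in LPS, against 6.86% of all genes. Gstm2, a glutathione transferase, lay at 69.3 to 271 CPM in Control (median 113) and 342 to 764 CPM in Selfox (median 482). Its rise was 1.74 ± 0.28 (adjusted p = 1.25e-04), without overlap. Gsta3, an alpha class glutathione transferase, lay at 0.448 to 5 CPM in Control (median 1.84) and 4.36 to 69.3 CPM in Selfox (median 21.5), and 9 of 10 Selfox libraries were above the controls (3.60 ± 0.64, adjusted p = 3.46e-04). The Selfox libraries differed widely in Gsta3, from 4.36 CPM in Selfox 8 to 69.3 CPM in Selfox 2, while LPS lay at 0.98 to 4.06 CPM. Gsta genes resemble each other in sequence, so the split of reads among them is uncertain. Nqo1, a widely used NRF2 target named after its value was seen, lay at 1.85 to 24.9 CPM in Control (median 13.8) and 5.58 to 51 CPM in Selfox (median 33) and did not pass (1.16 ± 0.45, adjusted p = 0.0591), although it did without Control 49 (1.41) or without Selfox 8 or 9. Among 19 phase II conjugation genes 9 rose and 1 fell, with Gstt1 at 0.83 ± 0.14 and Gstk1 at 0.43 ± 0.07. At an unadjusted p under 0.05 edgeR found 1 of the 26 NRF2 targets lower.

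The Gsta3 promoter is shown because Gsta3 had the largest rise of the NRF2 list. The motif TGACNNNGC, the core that NRF2 binds, was searched on both strands in the 250 bases before the start of 33469 RefSeq genes of build GRCr8, of which 10.1% held it. In the list 4 of the 20 genes with a promoter in the table held it, and 3 of these 4 rose. The sequence runs 5′ to 3′ along the gene, and capitals mark the match, which ends 9 bases before the start.
Gsta3 (chr9:31154739-31154988, plus strand): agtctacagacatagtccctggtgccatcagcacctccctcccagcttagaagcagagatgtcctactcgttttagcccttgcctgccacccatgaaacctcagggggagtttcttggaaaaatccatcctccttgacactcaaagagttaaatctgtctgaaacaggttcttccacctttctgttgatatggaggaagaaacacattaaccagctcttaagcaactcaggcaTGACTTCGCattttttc

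Targets of p53 rose in 9 of 26 tested and fell in 2 (median 0.45). Eda2r, a death receptor induced by p53, had the largest rise of the list. It was near absence in Control, at 0 to 0.221 CPM, and lay at 0.45 to 1.64 CPM in Selfox (median 1.17). All 10 Selfox libraries exceeded the controls (3.65 ± 0.56, adjusted p = 6.28e-05), and Eda2r was higher than in LPS too (2.67 ± 0.44, adjusted p = 3.30e-04). Bax, which opens the outer mitochondrial membrane in apoptosis, lay at 7.21 to 10.2 CPM in Control (median 8.43) and 10.4 to 15.9 CPM in Selfox (median 11.6), with no overlap (0.49 ± 0.10, adjusted p = 6.05e-04). Xpc, the damage sensor of nucleotide excision repair, rose by 0.55 ± 0.12, Perp by 0.59 ± 0.10 and Sesn1 by 0.82 ± 0.16. Bax, Xpc and Perp were also higher than in LPS (adjusted p of 0.00937, 0.0360 and 0.0149). Sesn1 was also higher in LPS than in Control (0.62, adjusted p = 0.0152). It did not differ between Selfox and LPS at the threshold (adjusted p = 0.407). Cdkn1a and Mdm2, targets of p53 that were looked at after their values were seen, did not pass. Cdkn1a, the cell cycle inhibitor p21, lay at 12.6 to 109.7 CPM in Control (median 88.9) and 64.3 to 119 CPM in Selfox (median 87.6) (0.12 ± 0.42, adjusted p = 0.862). Control 55 alone was low, at 12.6 CPM, and without it the difference was -0.11. Mdm2, which degrades p53, differed by 0.09 ± 0.11 (adjusted p = 0.598).

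Of 27 genes for repair of platinum adducts 2 rose and 6 fell (median -0.01), and the falls numbered 3 without Control 41 and, with 4 rises, 3 without Selfox 3, 4, 5 and 8. The 29.6% called lay near the 29.1% of all genes. Ercc8 fell by 0.33 ± 0.08 and Rev1, a translesion polymerase, by 0.35 ± 0.10, while Xpc rose. Among 21 base excision and mismatch repair genes 2 rose and 3 fell (23.8% called), led by the abasic site endonuclease gene Apex1 (-0.61 ± 0.11, adjusted p = 2.39e-04). The 3 falls there were 1 without Control 49, 6 without those 4 Selfox libraries, and 5 with limma voom or upper-quartile scaling. Cell cycle and mitosis genes rose in 0 of 29 and fell in 3. At an unadjusted p under 0.05 the number higher by edgeR was also 0, and at the adjusted threshold DESeq2 called 0 higher and limma voom 1. The fallers act at entry into S phase: Ccne1, which encodes cyclin E1, lay at 1.1 to 3.15 CPM in Control (median 1.53) and 0.356 to 0.754 CPM in Selfox (median 0.492) and fell by 1.78 ± 0.28 (adjusted p = 8.20e-05), Cdk2, its kinase partner, fell by 0.70 ± 0.08, and Mcm7, of the replicative helicase, by 0.75 ± 0.11. Against LPS 17 of the 29 were higher in Selfox and 2 lower, although 0 of the 29 rose in Selfox against Control. Mki67, Ccna2, Ccnb1 and Aurkb, looked at after their values were seen, were lower in LPS than in Control (-1.12, -1.23, -1.32 and -1.17). For Cdk1 and Top2a the difference between LPS and Control did not pass (adjusted p of 0.0869 and 0.1045). The inhibitor gene Cdkn2b, which encodes p15, lay at 0.41 to 0.849 CPM in Control (median 0.5) and 0.974 to 3.29 CPM in Selfox (median 1.57), with no overlap (1.70 ± 0.32, adjusted p = 3.85e-04).

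Among the largest non-overlapping rises over all genes were lipid, signalling and enzyme genes. Csmd1, a complement regulator, lay at 3.33 to 12.1 CPM in Control (median 5.33) and 16.7 to 57.8 CPM in Selfox (median 27.1) (2.20 ± 0.35, adjusted p = 1.31e-04). It was also higher than in LPS (2.50 ± 0.33). Il17rb, a subunit of the interleukin 25 receptor, lay at 7.77 to 27 CPM in Control (median 16.9) and 59 to 93.1 CPM in Selfox (median 73.2), a rise of 2.18 ± 0.30 that was not told apart from LPS (0.35 ± 0.26, adjusted p = 0.404). Adssl1, an enzyme of the purine nucleotide cycle, rose by 1.78 ± 0.17 (adjusted p = 3.51e-07) and Ubd, a ubiquitin-like modifier, by 1.80 ± 0.23. Egln3, an oxygen-sensing prolyl hydroxylase, rose by 2.98 ± 0.67 (adjusted p = 0.00218), highest in Selfox 3, 4, 5 and 8 (8.97 to 19.9 CPM, against 2.28 to 4.07 in the others and 0.627 to 1.7 in Control). Pde4b, a cyclic AMP phosphodiesterase, rose by 2.02 ± 0.45 and Rhbdf2, which controls release of tumour necrosis factor, by 2.28 ± 0.50. The other named rises were Mbp (2.28 ± 0.39), Ddhd1 (1.85 ± 0.34), Wfdc21 (2.11 ± 0.42) and Adamdec1 (1.82 ± 0.33). Mbp, Ddhd1, Wfdc21, Adamdec1 and Ubd were also higher in LPS than in Control (2.13, 1.52, 1.91, 1.80 and 1.53). None of them differed between Selfox and LPS at the threshold (lowest adjusted p 0.412), nor did Rhbdf2 (adjusted p = 0.0761). Adssl1, Egln3 and Pde4b were higher in Selfox than in LPS (adjusted p of 0.00178, 0.0234 and 0.0208). Without Selfox 3, 4, 5 and 8 the rises of Pde4b and Rhbdf2 were 0.98 and 0.95, still past the threshold, and those of Egln3, Mbp and Wfdc21 were 1.60, 1.59 and 1.31.

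The largest non-overlapping fall, among genes averaging at least 1 on the log2 CPM scale, was that of Abcg5, part of the transporter that sends sterols into bile. It lay at 18.6 to 64.6 CPM in Control (median 31.6) and 0.921 to 11.6 CPM in Selfox (median 2.74) and fell by 3.08 ± 0.50 (adjusted p = 1.40e-04). Selfox was also below LPS (-2.09 ± 0.47, adjusted p = 0.00513). Fabp7, a fatty acid binding protein, fell by 2.28 ± 0.24 (adjusted p = 1.28e-06), Cndp1, a dipeptidase, by 1.82 ± 0.20, Mgat4a, a glycosyltransferase, by 1.46 ± 0.15 and the stress gene Ndrg1 by 1.41 ± 0.20. The heat shock regulator gene Zfand2a lay at 12.6 to 35.5 CPM in Control (median 23.9) and 6.07 to 10.2 CPM in Selfox (median 8.49), all 10 below the controls (-1.51 ± 0.16). The other named falls were Nxpe5 (-2.35 ± 0.34), the protease gene Ctss (-1.36 ± 0.12) and the Kupffer cell genes Vsig4 and Clec4f (-2.03 ± 0.12 and -1.68 ± 0.14). Fabp7, Zfand2a and Nxpe5 were also lower in LPS than in Control (-2.51, -0.86 and -1.10). Fabp7 did not differ between Selfox and LPS at the threshold (adjusted p = 0.575). The other genes of this paragraph were lower in Selfox than in LPS (highest adjusted p 0.0117).

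Genes of lipid synthesis rose together. Of 20 lipogenesis and triglyceride synthesis genes 15 rose and 1, Dgat1, fell (median 1.23). Scd, the desaturase that makes oleate, lay at 474 to 3718 CPM in Control (median 939.9) and 7473 to 22460.0 CPM in Selfox (median 9374). Acacb, an acetyl-CoA carboxylase, rose by 2.32 ± 0.34 (adjusted p = 5.59e-05), and the citrate carrier gene Slc25a1 by 0.77 ± 0.11. Scd itself rose by 3.09 ± 0.50 (adjusted p = 1.54e-04) without overlap, and Pnpla5, a lipase gene of the lipid droplet list, by 4.94 ± 0.87 (adjusted p = 3.13e-04). Control 55 was the highest control for both, with 3718 CPM of Scd and 3.75 CPM of Pnpla5. Without it the rises were 3.69 and 6.13. Without Selfox 3, 4, 5 and 8 the list counted 9 risers in place of 15. None of Scd, Acacb and Slc25a1 differed from LPS at the threshold (lowest adjusted p 0.0677), nor did Pnpla5 (adjusted p = 0.0673).

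Cholesterol synthesis and uptake genes rose in 12 of 25 and fell in 0 (median 0.59). Pmvk, a kinase of the mevalonate pathway, lay at 13.4 to 24.8 CPM in Control (median 16.9) and 25.7 to 53.8 CPM in Selfox (median 48.9), with no overlap (1.36 ± 0.20, adjusted p = 3.89e-05). Dhcr7, the last step of cholesterol synthesis, rose by 1.20 ± 0.22, Fdps by 1.12 ± 0.22 and Ebp by 0.59 ± 0.12. Pmvk, Dhcr7, Fdps and Ebp did not differ from LPS at the threshold (differences of -0.15 to 0.09). Of the 25 genes 0 were higher in Selfox than in LPS and 6 were lower.

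Fatty acid oxidation and PPARα target genes moved the other way: 15 of 27 fell and 1 rose (median -0.59). Ech1, an auxiliary enzyme of beta-oxidation, lay at 82.3 to 360.2 CPM in Control (median 306) and 43.2 to 82.7 CPM in Selfox (median 63). It fell by 2.10 ± 0.23 (adjusted p = 2.28e-06), with 9 of 10 Selfox libraries below the controls. Acot2, Cpt2 and Hadhb, a thioesterase, a carnitine transferase and a subunit of the trifunctional protein, fell by 1.74 ± 0.22, 1.02 ± 0.15 and 0.87 ± 0.12. Vnn1, a pantetheinase under PPARα, fell by 2.19 ± 0.37. The riser was Angptl4, a lipase inhibitor (1.58 ± 0.48, adjusted p = 0.0163), lost without Selfox 3, 4, 5 and 8 (0.44, adjusted p = 0.372). Ech1, Acot2, Cpt2, Hadhb and Vnn1 did not differ from LPS at the threshold (differences of -0.06 to 0.35).

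Bile acid genes changed in 6 of 20 tested, and this 30.0% lay near the 29.1% of all genes. Nr0b2, the nuclear receptor SHP that represses bile acid synthesis, lay at 14.3 to 40.6 CPM in Control (median 23.4) and 2.45 to 13.7 CPM in Selfox (median 5.88). Every Selfox library was below the controls (-1.95 ± 0.30, adjusted p = 9.02e-05) and the group was below LPS (-1.90 ± 0.29, adjusted p = 1.75e-04). Cyp8b1, the sterol hydroxylase that decides for cholic acid, fell by 1.53 ± 0.31 (adjusted p = 0.00102) and was also lower than in LPS (-0.95 ± 0.30). Cyp7b1, of the alternative pathway, rose by 1.36 ± 0.20 (adjusted p = 3.57e-05). Cyp7a1, the rate-limiting enzyme of the main pathway, looked at after its value was seen, spanned 165 to 738 CPM in Control and 103 to 849 CPM in Selfox and did not pass (0.84 ± 0.37, adjusted p = 0.0887). Without Control 55 it did, at 1.32, as it did without Selfox 3, 4, 5 and 8 (1.01, adjusted p = 0.0338). Of 20 drug-metabolising cytochrome P450 genes 4 rose and 2 fell, also 30.0%. The fallers included Por, the reductase that feeds electrons to all of them (-0.81 ± 0.15, adjusted p = 2.72e-04), with no overlap and a level below LPS (-0.61 ± 0.14). Cyp2c11, a sex-dependent form of the rat, rose by 0.94 ± 0.24, with Control 55 inside the Selfox range.

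Periportal and urea cycle genes rose in 10 of 21 and fell in 1 (median 0.31). Ass1, a urea cycle enzyme, lay at 729.6 to 1377 CPM in Control (median 1159) and 1522 to 2174 CPM in Selfox (median 2006), without overlap (0.77 ± 0.11, adjusted p = 3.34e-05), Otc, a urea cycle enzyme of mitochondria, rose by 0.63 ± 0.12 and the serine dehydratase-like gene Sdsl by 0.69 ± 0.11. Pericentral genes fell in 5 of 19 and rose in 1 (Car2, 0.97 ± 0.16), with Lect2 at -0.74 ± 0.13. The 31.6% called lay near the 29.1% of all genes. Glul, the defining pericentral enzyme glutamine synthetase, looked at after its value was seen, did not pass (-0.49 ± 0.22, adjusted p = 0.106). The 5 falls were 3 without Control 41, 46 or 52 or Selfox 3 or 6, while the rises numbered 3 without Control 55, 2 without Selfox 3, 4, 5 and 8 and 4 with limma voom. Among 22 hepatocyte identity genes 5 rose and 6 fell, the rises numbering 3 without Control 49 and 2 without Selfox 3, 4, 5 and 8. Apoa1, the main protein of high-density lipoprotein, lay at 1440.0 to 2044 CPM in Control (median 1724) and 566 to 1037 CPM in Selfox (median 899), all 10 Selfox libraries below the controls (-1.02 ± 0.15, adjusted p = 3.32e-05), and Hnf4a, a master regulator of hepatocytes, fell by 0.53 ± 0.09. In glycolysis and gluconeogenesis 9 of 26 rose and 4 fell. Pfkfb3, which drives glycolysis, fell by 1.35 ± 0.35 with 1 exception, Selfox 8 at 26.8 CPM, inside the controls (18.2 to 29.2 CPM), and the difference was -2.30 without Selfox 3, 4, 5 and 8.

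Genes of the respiratory chain rose by small amounts. Among 28 nuclear genes of oxidative phosphorylation 17 rose and 0 fell (median 0.25, highest 0.55), or 11 without Control 49. Sdha, of complex II, lay at 190.0 to 236 CPM in Control (median 215) and 254 to 314 CPM in Selfox (median 267), with no overlap (0.36 ± 0.07, adjusted p = 3.09e-04), and Uqcrc1, of complex III, rose by 0.39 ± 0.07. Of 13 protein genes of the mitochondrial genome 6 rose and 0 fell, with Mt-co1 at 0.35 ± 0.07, and 7 were above LPS. Without Control 46 the rises numbered 10. Of 27 mitochondrial ribosomal protein genes 6 rose and 3 fell (median 0.09), and the 33.3% called lay near the 29.1% of all genes. The rises there were 3 without Control 49 or without Selfox 3, 4, 5 and 8, and 10 without Control 55 or with limma voom. Ribosome production genes fell. Of 29 genes of RNA polymerase I and ribosome biogenesis 21 fell and 0 rose (median -0.43), and the count was also 21 without Selfox 3, 4, 5 and 8. Ftsj3, a processing factor of ribosomal RNA, lay at 22.2 to 35.5 CPM in Control (median 32.2) and 12.6 to 20.7 CPM in Selfox (median 16.8), without overlap (-0.90 ± 0.12, adjusted p = 1.08e-05). Rrp9 fell by 0.88 ± 0.13, Pes1 by 0.47 ± 0.07 and Ubtf, the promoter factor of RNA polymerase I, by 0.42 ± 0.06. Of 31 cytosolic ribosomal protein genes 1 rose and 0 fell, with 0 to 3 rises when 1 library was left out (3 without Control 40 or 55, 0 without Control 49) and 7 with limma voom, and 1 of the 29 biogenesis genes was below LPS. For the counts of 0 in the contractile, mitochondrial, ribosome and NF-kB lists, edgeR also found 0 in that direction at an unadjusted p under 0.05, and it found 1 for cholesterol synthesis and for the unfolded protein response. DESeq2 and limma voom called 0 in that direction in each of these lists and among the NRF2 targets. Of 26 genes of the unfolded protein and integrated stress responses 9 fell and 0 rose, led by the pseudokinase gene Trib3 (-1.52 ± 0.27, adjusted p = 3.28e-04) and the degradation factor gene Herpud1 (-1.04 ± 0.20).

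Contractile genes of smooth muscle and other mural cells rose in 9 of 14 and fell in 0 (median 0.48). Acta2, which encodes smooth muscle actin, lay at 3.48 to 4.8 CPM in Control (median 4.15) and 6.48 to 14.6 CPM in Selfox (median 10.1). All 10 Selfox libraries exceeded every control (1.29 ± 0.16, adjusted p = 6.02e-06), and the group exceeded LPS (1.11 ± 0.15, adjusted p = 2.66e-05). Lmod1, a leiomodin of smooth muscle filaments, lay at 0.605 to 0.769 CPM in Control (median 0.699) and 1.27 to 2.54 CPM in Selfox (median 1.42), without overlap (1.19 ± 0.16, adjusted p = 1.91e-05). Tagln, the actin-binding transgelin, rose by 0.51 ± 0.10, Tpm1 by 0.49 ± 0.08 and Myl9 by 0.64 ± 0.11. Whether whole liver held more mural cells or more RNA of these genes per cell cannot be told apart, here and for every cell type below. Of 21 stellate cell and portal fibroblast genes 3 rose and 5 fell (median -0.11). Rgs5, a pericyte gene, rose by 0.77 ± 0.15 and Lrat, which stores vitamin A in stellate cells, by 0.52 ± 0.15, while Cxcl12, a chemokine of the stroma, fell by 0.86 ± 0.14 and the growth factor gene Hgf by 0.59 ± 0.14.

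Several genes of the TGF-beta and matricellular list rose strongly (8 of 21 rose, 2 fell), and 5 rose without Selfox 3, 4, 5 and 8. Ankrd1, a target of YAP and of stretch, lay at 0.161 to 0.313 CPM in Control (median 0.274) and 0.737 to 2.68 CPM in Selfox (median 1.31), with no overlap (2.55 ± 0.28, adjusted p = 1.43e-06). LPS lay at 0.42 to 0.791 CPM, below Selfox (1.31 ± 0.23, adjusted p = 4.99e-04). Ctgf and Cyr61, matricellular proteins of the CCN family, rose by 1.31 ± 0.26 and 2.08 ± 0.49. Thbs1, an activator of TGF-beta, lay at 3.64 to 6.82 CPM in Control (median 6.38) and 8.57 to 82.6 CPM in Selfox (median 19.3), highest in Selfox 3. Its rise was 2.17 ± 0.47 (adjusted p = 0.0017), and 1.24 without Selfox 3, 4, 5 and 8. Collagens and matrix enzymes rose in 5 of 25, or in 8 without Selfox 5, without Selfox 6 or with DESeq2. With all libraries 24.0% of these genes were called, against 29.1% of all genes. Basement membrane collagen genes Col4a1 and Col4a2 rose by 0.65 ± 0.17 and 0.62 ± 0.15, and both were above LPS (0.75 ± 0.16 and 0.81 ± 0.14). Col1a1, the fibrillar collagen of scars, looked at after its value was seen, did not pass (-0.43 ± 0.23, adjusted p = 0.162), and the matrix protease gene Mmp14 fell by 0.75 ± 0.16.

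**Figure D4:**
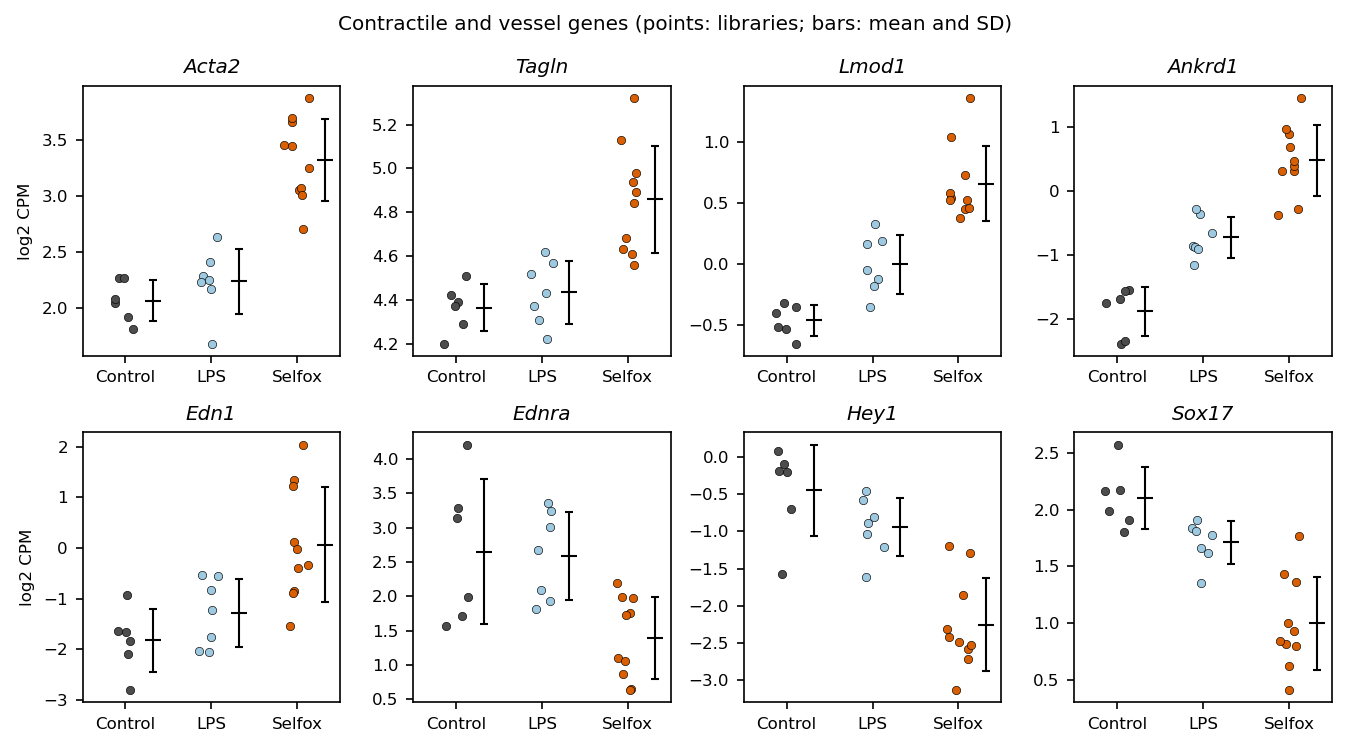
Log2 CPM of 8 contractile and vessel genes in Control (grey), LPS (blue) and Selfox (orange), each point 1 library, with the mean and SD of each group as a bar. Acta2, Tagln, Lmod1 and Ankrd1 are higher in all 10 Selfox libraries than in every control, Sox17 is lower in all 10, and Edn1, Ednra and Hey1 overlap.

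Among vasoactive and shear-responsive genes 5 of 22 rose and 5 fell, the rises numbering 3 without Control 46 or 52, without Control 55 and Selfox 8 together or at equal depth, and 2 without Selfox 3, 4, 5 and 8. Edn1, which encodes the constrictor endothelin 1, lay at 0.112 to 0.497 CPM in Control (median 0.266) and 0.311 to 4.08 CPM in Selfox (median 0.86). It rose by 2.33 ± 0.54 (adjusted p = 0.00257), with 9 of 10 Selfox libraries above the controls, and by 1.21 without Selfox 3, 4, 5 and 8. Ednra, its receptor on mural cells, lay at 2.92 to 18.4 CPM in Control (median 6.37) and 1.51 to 4.57 CPM in Selfox (median 2.69) and was chosen after its value was seen; it fell by 1.48 ± 0.36 (adjusted p = 0.00435) with overlapping ranges. Nos3, the endothelial nitric oxide synthase, rose by 0.42 ± 0.10 and was above LPS (0.52 ± 0.09, adjusted p = 5.61e-04). Ptgs1, a cyclooxygenase, fell by 0.88 ± 0.16, the angiotensin receptor gene Agtr1a by 0.54 ± 0.10, and Thbd, the anticoagulant thrombomodulin, by 0.86 ± 0.19 (adjusted p = 0.00202), each also below LPS.

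Of 23 sinusoidal markers 6 rose and 2 fell, and of 20 vascular and capillarisation markers 4 rose and 1 fell, so that 34.8% and 25.0% were called, against 29.1% of all genes. The sinusoidal rises numbered 3 without Control 40, Selfox 9 or Selfox 10, and the vascular falls 4 without Selfox 3, 4, 5 and 8. Nid1, a basement membrane nidogen, lay at 23 to 28.4 CPM in Control (median 25) and 30.6 to 44.8 CPM in Selfox (median 38.6), with no overlap (0.57 ± 0.09, adjusted p = 1.30e-04), and the clotting factor gene Vwf rose by 0.56 ± 0.10. The highest fitted rise was that of Sele, the endothelial selectin E, named after its value was seen. It lay at 0 to 0.0559 CPM in Control, where 4 of 6 libraries were at 0, and at 0 to 8.38 CPM in Selfox, above 1 CPM in Selfox 3, 5 and 8. At such counts no fold is given; limma voom did not call it, and it was too low to be tested without Selfox 3, 4, 5 and 8 together or without any 1 of Selfox 3, 4, 5, 6, 8 and 10. Sox17, a transcription factor of arterial endothelium, lay at 3.45 to 5.89 CPM in Control (median 4.18) and 1.3 to 3.37 CPM in Selfox (median 1.81), all 10 Selfox libraries below the controls (-1.08 ± 0.16, adjusted p = 5.55e-05). Hey1, a target of Notch signalling from the angiogenesis list, fell by 1.92 ± 0.30 (adjusted p = 8.69e-05), and Heyl, its relative, named after its value was seen, by 1.13 ± 0.18 (adjusted p = 8.12e-05). Sox17, Hey1 and Heyl were also lower than in LPS (adjusted p of 0.00514, 0.00291 and 0.0027). Nrp2, a co-receptor for vascular endothelial growth factor, rose by 0.66 ± 0.15.

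Most Kupffer cell markers were lower in Selfox. Of 17 tested 12 fell, each with all 10 Selfox libraries below the controls, and 4 did not pass. The riser was Nr1h3, the oxysterol receptor LXR alpha, which hepatocytes also express and which was named after its value was seen (0.31 ± 0.09, adjusted p = 0.00907). The scavenger receptor Marco stood at 7.65 to 13.6 CPM in Selfox, 59.1 to 113 in Control and 65.6 to 80.0 in LPS, and 11 of 17 markers were below LPS. Csf1r, the receptor that macrophages need for survival, lay at 63 to 94.4 CPM in Control (median 79.5) and 25.6 to 44.4 CPM in Selfox (median 33.3), while Csf1, its ligand, lay at 3.89 to 5.08 CPM in Control (median 4.71) and 5.99 to 33.7 CPM in Selfox (median 10.8). Neither gene overlapped between groups: the receptor fell by 1.21 ± 0.14 (adjusted p = 3.51e-06) and the ligand rose by 1.77 ± 0.35 (adjusted p = 8.33e-04), or 0.97 without Selfox 3, 4, 5 and 8. Of 12 monocyte and dendritic cell markers 4 fell and 1 rose. Xcr1, which defines cross-presenting dendritic cells, lay at 1.44 to 2.82 CPM in Control (median 1.87) and 0.363 to 1.09 CPM in Selfox (median 0.779), all 10 below the controls (-1.45 ± 0.20, adjusted p = 1.82e-05), Clec9a, of the same cells, fell by 0.72 ± 0.12 and Flt3, their growth factor receptor, by 0.64 ± 0.17. Ccr7, the receptor that guides dendritic cells and lymphocytes to lymph nodes, fell by 1.87 ± 0.26 (adjusted p = 2.36e-05), with no overlap. Cfd, complement factor D, fell by 1.21 ± 0.15, and of 32 complement genes 7 fell and 5 rose, the rises numbering 3 without Control 40, 49 or 52 or Selfox 5 or 6, and 2 without Selfox 3, 4, 5 and 8.

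Many inflammatory genes varied widely among the Selfox livers. Of 24 genes of NF-kB activation and feedback 14 rose and 0 fell (median 1.16), and of 25 chemokines and receptors 12 rose and 6 fell. With limma voom the risers numbered 8 and 7. Tnfaip3, which encodes the feedback inhibitor A20, lay at 7.38 to 17.9 CPM in Control (median 9.2) and 12.9 to 500.3 CPM in Selfox (median 106). It rose by 4.06 ± 0.81 (adjusted p = 8.46e-04), but its 10 Selfox values spread from the control range upward: 188 to 500 CPM in Selfox 3, 4, 5 and 8, 150 in Selfox 10, 61.7 in Selfox 6 and 12.9 to 25.7 in Selfox 1, 2, 7 and 9. Nfkbia, the inhibitor of NF-kB itself, showed 371 to 493 CPM in Selfox 3, 5 and 8, 396 in Selfox 10 and 49.5 to 73.5 in Control (2.04 ± 0.42, adjusted p = 0.00109). The chemokine gene Cxcl10 ranged over 3.41 to 1054 CPM in Selfox (median 59.2) and 1.59 to 11.8 in Control (5.68 ± 1.30, adjusted p = 0.00267); its highest value was in Selfox 8 and its lowest in Selfox 2, and limma voom did not call it. Without Selfox 3, 4, 5 and 8 its rise was 2.14 (adjusted p = 0.0413). Ccl2, which recruits monocytes, rose by 6.13 ± 1.11 (adjusted p = 4.14e-04), by 6.72 without Control 40 and by 3.94 without Selfox 3, 4, 5 and 8, and was not called by limma voom. The adhesion molecule gene Icam1 rose by 2.89 ± 0.68, and by 0.82 (adjusted p = 0.0372) without Selfox 3, 4, 5 and 8.

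Without these 4 libraries 4 of the 24 NF-kB genes rose and 2 fell, and 8 of the 25 chemokine genes rose and 6 fell. Tnfaip3 then rose by 2.12 and Nfkbia by 1.30, both still called (adjusted p = 0.00584 and adjusted p = 0.0093), while the interferon regulatory factor gene Irf1 (3.26 ± 0.79 with all libraries) lost its call (0.89, adjusted p = 0.099). Of 10 neutrophil markers 5 rose with all libraries, 2 without Control 52, 1 without Control 55 and Selfox 8 together, and 0 without the 4 or with limma voom. S100a8, an abundant neutrophil protein, ranged over 0.669 to 27.1 CPM in Selfox and 0.608 to 3.35 in Control, and its call was lost without Control 52, without Control 55 and Selfox 8 together, without Selfox 3, 4, 5 and 8, with Control and Selfox fitted alone, and with limma voom. Whether neutrophils in the tissue carried part of the NF-kB and chemokine values was not tested. Ikbke, a kinase upstream of interferon regulatory factors, lay above every control in all 10 Selfox libraries (8.67 to 12.7 CPM in Control (median 10.8) and 12.9 to 29.4 CPM in Selfox (median 19.6)), a rise of 1.02 ± 0.18 (adjusted p = 2.19e-04).

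The 10 genes whose log2 CPM spread most over the Selfox libraries were described without a test. They included Cxcl10, Rnd1, Cxcl1, Ccl2, Ripk2, Tnfaip2 and Cxcl9. The SD of log2 CPM was 3.27 for Cxcl10 over the 10 Selfox libraries and 1.10 over the 6 controls. Ripk2, a kinase downstream of bacterial sensors, ran from 6.10 CPM in Selfox 9 to 427 CPM in Selfox 8, with controls at 7.31 to 9.75. Rnd1, a small GTPase, ran over 1.38 to 151 CPM and Cxcl9, an interferon-gamma-induced chemokine, over 12.4 to 599.5 CPM, against 0.59 to 2.42 and 15.8 to 30.1 in Control. All 3 were higher in Selfox 3, 4, 5, 6 and 8 than in any control, and Ripk2 and Rnd1 were so in Selfox 10 too.

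**Figure D5:**
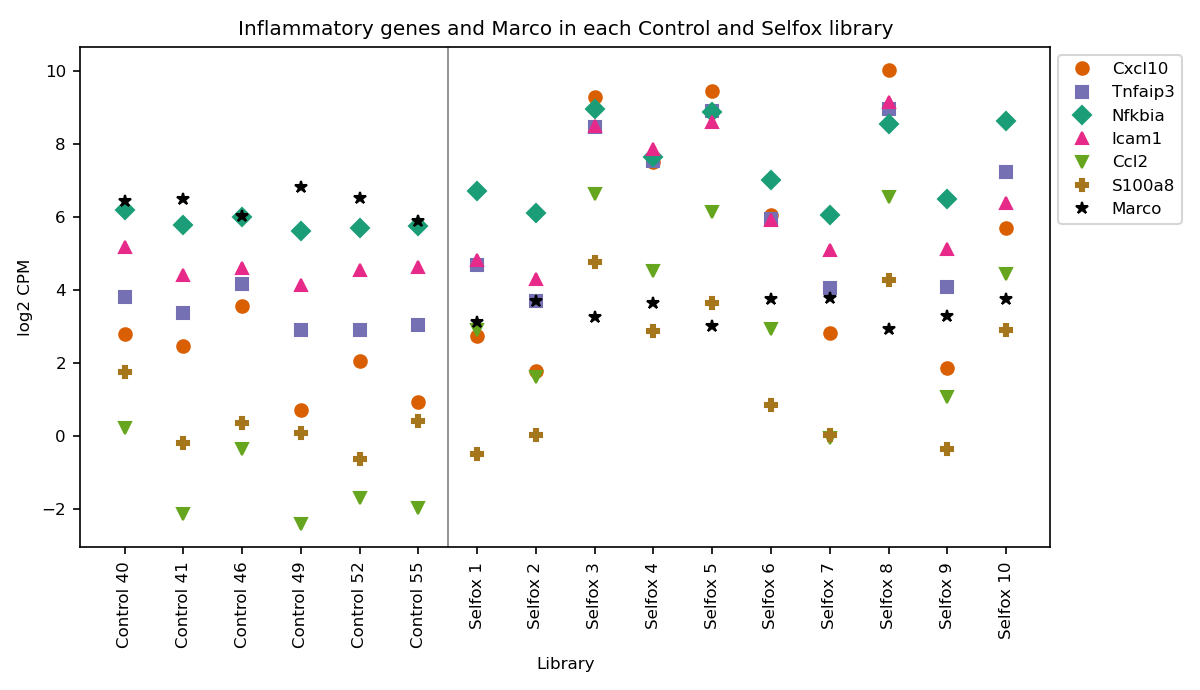
Log2 CPM of 6 inflammatory genes and of the Kupffer cell marker Marco in each of the 6 Control and 10 Selfox libraries, 1 symbol per gene. For each inflammatory gene Selfox 1, 2, 7 and 9 are the 4 lowest Selfox libraries, Selfox 3, 5 and 8 are among the 4 highest, and Selfox 4, 6 and 10 lie between except for Nfkbia, where Selfox 10 exceeds Selfox 8, whereas Marco is low in all 10 Selfox libraries.

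Of 33 interferon-stimulated genes 3 rose and 6 fell (median -0.11), and the 27.3% called lay near the 29.1% of all genes. The risers were Irf1, given above, and Gbp5 and Ifit1, both named after their values were seen. Gbp5, a guanylate-binding protein, lay at 2.95 to 10.8 CPM in Control (median 4.29) and 4.6 to 68.7 CPM in Selfox (median 25.7) and rose by 2.19 ± 0.49 (adjusted p = 0.00216), highest in Selfox 8, and by 1.37 (adjusted p = 0.0233) without Selfox 3, 4, 5 and 8. Ifit1, an antiviral RNA-binding protein, rose by 3.52 ± 1.14 (adjusted p = 0.0234) from low levels (0.0553 to 0.383 CPM in Control, 0.026 to 5.79 CPM in Selfox) and by 4.35 without Control 40. Its call was lost without Selfox 3, 4, 5 and 8 (3.20, adjusted p = 0.0511), without Control 55 and Selfox 8 together, and with limma voom. The rises numbered 1 without Selfox 3, 4, 5 and 8, and the falls 3 without Control 46, 11 without Selfox 6 and 10 with limma voom. Oas1b, an antiviral oligoadenylate synthetase family gene, lay at 4.36 to 8.74 CPM in Control (median 5.98) and 0.974 to 6.7 CPM in Selfox (median 2.88), 9 of 10 Selfox libraries below the controls (-1.11 ± 0.28, adjusted p = 0.00538), and Mx1, an antiviral GTPase, fell by 1.18 ± 0.29 (adjusted p = 0.00475). Oas1b and Mx1 were also lower in LPS than in Control (-1.77 and -1.60, adjusted p of 9.74e-04 and 0.00268). Neither differed between Selfox and LPS at the threshold (adjusted p of 0.125 and 0.357). In Selfox 8, where Cxcl10 was highest (1054 CPM), Oas1b stood at 2.86 CPM, below every control.

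Promoters of 4 risers of the NF-kB and chemokine lists and of the faller Oas1b are shown to set these groups side by side. Motifs were searched on both strands in the 250 bases before the start (RefSeq, GRCr8). The NF-kB consensus was found in 3.54% of all 33469 promoters, in 10 of the 20 NF-kB list genes with a promoter in the table (7 of the 10 rose) and in 4 of 19 chemokine genes (all 4 rose). The interferon response motif, GAAA and GAAA with any 2 bases between them, was found in 3.41% of all promoters and in 16 of 23 interferon-stimulated genes, of which 1 rose and 3 fell. Capitals mark the matches; Tnfaip3 holds 3 NF-kB matches, Nfkbia 1, Cxcl2 2 that overlap, Cxcl10 1 of each motif, and Oas1b 2 overlapping interferon response matches. A match is a string of letters and does not show binding.
Tnfaip3 (chr1:15543980-15544229, minus strand): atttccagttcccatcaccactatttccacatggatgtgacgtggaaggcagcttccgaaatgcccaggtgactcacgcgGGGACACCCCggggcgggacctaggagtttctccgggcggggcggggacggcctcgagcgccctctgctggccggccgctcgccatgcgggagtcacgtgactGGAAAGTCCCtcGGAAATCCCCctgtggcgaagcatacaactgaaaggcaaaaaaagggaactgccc
Nfkbia (chr6:78597073-78597322, minus strand): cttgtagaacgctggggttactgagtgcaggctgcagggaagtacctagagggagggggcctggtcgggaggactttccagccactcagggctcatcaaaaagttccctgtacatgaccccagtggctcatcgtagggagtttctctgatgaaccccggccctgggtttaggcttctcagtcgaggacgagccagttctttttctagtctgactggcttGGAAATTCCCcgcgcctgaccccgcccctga
Cxcl2 (chr14:17467256-17467505, minus strand): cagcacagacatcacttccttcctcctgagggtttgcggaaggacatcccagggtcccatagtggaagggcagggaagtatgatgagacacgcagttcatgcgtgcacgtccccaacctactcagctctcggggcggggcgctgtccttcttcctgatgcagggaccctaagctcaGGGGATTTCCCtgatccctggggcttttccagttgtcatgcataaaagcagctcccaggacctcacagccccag
Cxcl10 (chr14:15988816-15989065, plus strand): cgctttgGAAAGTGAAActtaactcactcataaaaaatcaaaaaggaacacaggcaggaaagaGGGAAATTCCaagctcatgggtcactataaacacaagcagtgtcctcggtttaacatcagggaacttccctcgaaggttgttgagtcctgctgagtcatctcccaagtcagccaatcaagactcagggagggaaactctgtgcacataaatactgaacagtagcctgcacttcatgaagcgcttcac
Oas1b (chr12:41395853-41396102, minus strand): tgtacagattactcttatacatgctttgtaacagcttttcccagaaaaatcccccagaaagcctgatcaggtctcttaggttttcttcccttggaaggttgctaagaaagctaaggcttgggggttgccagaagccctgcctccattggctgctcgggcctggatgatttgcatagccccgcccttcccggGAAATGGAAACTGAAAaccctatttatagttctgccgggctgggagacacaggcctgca
Cxcl2, a neutrophil-attracting chemokine chosen for its motif after its value was seen, rose by 2.74 ± 0.77 (adjusted p = 0.0112) with all libraries, by 3.43 without Control 40, and did not pass without Selfox 3, 4, 5 and 8 (1.73, adjusted p = 0.0949).

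Set directly against LPS, Selfox differed in 2187 of 15079 genes (14.5%), with 1035 higher (6.86%) and 1152 lower (7.64%). Surgery and the portal catheter came with LPS, and both comparisons share the Selfox libraries. Over 50% of members differed from LPS in 7 lists of at least 10 tested genes. These were T and NK cell markers (2 higher and 13 lower of 22), cell cycle (17 higher and 2 lower of 29), Kupffer cell markers (11 of 17 lower), B and plasma cell markers (6 of 10 lower), neutrophil markers (6 of 10 higher), chemokines and receptors (10 higher and 5 lower of 25) and the mitochondrial genome (7 of 13 higher). Against Control 0 of the 29 cell cycle genes rose in Selfox. For lipogenesis, fatty acid oxidation and ribosome biogenesis, lists in which more than 50% of members differed from Control, 2 of 20, 3 of 27 and 1 of 29 members differed from LPS. Selfox was not set against LPS without Selfox 3, 4, 5 and 8. Against Control, leaving them out took the neutrophil risers from 5 to 0 and the chemokine risers from 12 to 8. The T and NK cell fallers went from 7 to 4, while the Kupffer cell fallers stayed at 12.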

How the data were processed

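Whole liver RNA of rats was sequenced after TruSeq stranded mRNA preparation, per the labels' protocols. The authors deposited read counts per gene as whole numbers in 1 table of 28913 rows, of which 21753 held counts in at least 1 library. FastQC, Trim Galore, STAR 2.7.9a and featureCounts of Subread 2.0.3 were used, per the submitters' processing notes. Genome build, annotation and strand setting: not given in the sources used here. Reads of overlapping or antisense genes therefore cannot be told apart. Of counts from 1 to 9, 70.4% were even, so both ends of a read pair may have been counted. An alternative with all counts divided by 2 was run.

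All 23 libraries (Control 6, LPS 7, Selfox 10) were fitted together in edgeR 4.0.16 (R 4.3.3) with default filtering at a minimum count of 10, which kept 15079 genes and 99.99% of counts, TMM factors and the robust quasi-likelihood F test. P-values were adjusted over all tested genes by the Benjamini-Hochberg method. The biological coefficient of variation was 0.235. Log2 CPM used a prior count of 2. DESeq2 1.42.0, limma 3.58.1 (voom), other scalings and filters, equal depth and libraries left out were alternatives. On simulated counts for this comparison (14816 genes) the test recovered 37 of 67 changes of 1.5-fold, 58 of 67 of 2-fold and 60 of 66 of 4-fold, and 6.63% of its calls were false.

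The members and the 55 gene lists (1249 entries, 56 without a row) were chosen with earlier results of these data known, so lists are described by counts and medians without a test. Named genes were the 14 largest non-overlapping rises and falls among genes averaging at least 1 on the log2 CPM scale, leaving out symbols without a nameable function, up to 5 genes per list by adjusted p with up to 3 that moved against their list, and the 10 with the largest SD over Selfox. Some genes this rule names are not reported here. Genes outside this rule are said to have been looked at after their values were seen. The labels do not tie LPS and Selfox libraries of 1 number to each other. Promoters came from RefSeq (GRCr8).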

Additional observations from a re-analysis of the deposited data

Results flagged for a closer look

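In each named gene the highest and lowest library of a group were compared with the rest by Dixon's rule at its 95% critical value. Among 330 groups of libraries (165 genes, in Control and in Selfox) 28 had a library that stood apart, and chance gives about 1 in 20. Values are log2 CPM, followed by the range of the other libraries of the group.

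Control 55 stood apart most often. It was above the other controls in Sesn1 (5.24, others 4.46 to 4.72), Slc25a1 (6.77, others 6.09 to 6.33), Fdps (8.40, others 6.70 to 7.29), Cyp7a1 (9.53, others 7.37 to 8.11) and Cyp2c11 (11.78, others 9.98 to 10.43). It was below them in Nqo1 (0.91, others 3.42 to 4.64), Cdkn1a (3.65, others 6.40 to 6.78), Ftsj3 (4.47, others 4.92 to 5.15), Pes1 (4.68, others 4.96 to 5.12), Col4a1 (5.17, others 5.73 to 5.96), Col4a2 (4.44, others 4.90 to 5.10), Mmp14 (5.51, others 6.20 to 6.58) and Irf1 (3.32, others 4.09 to 4.54).

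Selfox 8 was below the other Selfox libraries in Upb1 (8.25, others 8.50 to 8.79), Pmvk (4.69, others 5.20 to 5.75), Dhcr7 (5.52, others 6.11 to 6.74) and Cyp7a1 (6.69, others 8.34 to 9.73). Control 40 was above its group in Ifit1 (-1.27, others -3.53 to -2.90). Control 40 was below its group in Nrp1 (3.22, others 3.86 to 4.19). Control 41 was above its group in Cxcl9 (4.91, others 3.98 to 4.24). Control 46 was above its group in Psat1 (5.23, others 3.06 to 3.86) and Ripk2 (3.29, others 2.88 to 2.98). Selfox 4 was above its group in Uck1 (3.30, others 2.72 to 2.96) and Phgdh (2.32, others -0.12 to 0.98). Selfox 5 was above its group in Secisbp2l (7.93, others 7.05 to 7.49). Selfox 5 was below its group in Myl9 (2.96, others 3.33 to 3.69). Selfox 6 was above its group in Bax (4.0, others 3.38 to 3.69). Selfox 6 was below its group in Dio1 (6.07, others 6.60 to 7.01).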

How the results depend on the processing

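Main counts for Selfox against Control (4385 called, 2250 of them lower) stayed within 1.5 times under every alternative. RLE scaling gave 2197 higher and 2188 lower, upper-quartile scaling 2055 and 2325, no filter 2122 and 1857, and equal depth 1926 and 1868. Control and Selfox alone gave 4202 calls. DESeq2 called 4751 genes and limma voom 5081. With each library left out in turn the calls ran from 3638 (without Control 49) to 4705 (without Control 55), the rises from 1752 to 2355 and the falls from 1788 to 2350. Without Selfox 3, 4, 5 and 8, an alternative chosen after seeing the data, 3961 genes were called, 3306 of them with all libraries too and in the same direction. Of 165 named genes 156 were called, and 151 of these kept their call in each of the 16 fits that left out 1 library and tested them (Sele was too low in 6); Mt1, Slc31a2, S100a8, Krt19 and Kdr did not. Of the 156 calls 8 were lost without those 4 Selfox libraries and 9 with limma voom, and Sele could not be tested without the 4. Cdkn1a ran from -0.11 to 0.23 with 1 library left out; it changed sign without Control 55 (-0.11) and without Control 55 and Selfox 8 (-0.07); Control 55 was its 1 low control. No paired analysis was possible because Control libraries carry numbers that no Selfox library shares. LPS and Selfox share numbers 1 to 7; correlations of same-numbered deviations ran from -0.059 to 0.16, so the numbers were not taken to pair the libraries. With the replicate block on those 14 libraries 1259 genes differed between Selfox and LPS (558 higher, 701 lower), against 1617 (767 and 850) for the same libraries without it and 2187 for all. Control totals were the smallest, which limits the detection of small changes.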

Other observations

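Cholangiocyte and ductular markers rose in 3 of 16 tested and fell in 1, so that 25.0% were called, against 29.1% of all genes. Epcam, an adhesion molecule of bile duct epithelium, lay at 4.81 to 8.46 CPM in Control (median 6.22) and 9.04 to 14.6 CPM in Selfox (median 11.2), with all 10 Selfox libraries above the controls (0.83 ± 0.14, adjusted p = 1.18e-04). Krt19, a keratin that defines bile ducts, lay at 0.559 to 1.63 CPM in Control (median 1.22) and 1.35 to 2.49 CPM in Selfox (median 1.73) and rose by 0.59 ± 0.19 (adjusted p = 0.022) with overlapping ranges, a call lost without Control 41. In the angiogenesis list 4 of 21 rose and 3 fell, and the 33.3% called lay near the 29.1% of all genes. Nrp1 and Kdr, a co-receptor and the main receptor of vascular endothelial growth factor, rose by 0.54 ± 0.16 and 0.46 ± 0.16, and both were above LPS (0.62 ± 0.15 and 0.69 ± 0.15). The Kdr call was lost without Control 40 or 46 or Selfox 9 or 10. Angpt2, an antagonist ligand of the endothelial receptor Tie2, fell by 1.00 ± 0.24 (adjusted p = 0.0031).

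Immediate early genes rose in 8 of 22 and fell in 0 by edgeR, with 0 lower at an unadjusted p under 0.05 and by DESeq2 and limma voom. Egr2, a transcription factor of this class, lay at 0.188 to 0.746 CPM in Control (median 0.387) and 0.572 to 2.78 CPM in Selfox (median 1.63) (1.90 ± 0.38, adjusted p = 7.90e-04). In the growth hormone axis 2 of 16 rose and 4 fell, with the insulin receptor gene Insr at 0.31 ± 0.06 without overlap and the growth hormone receptor gene Ghr at 0.43 ± 0.09. The 4 falls were 0 without Control 49, 1 without Control 52 or without Selfox 3, 4, 5 and 8, and 2 without Control 40, 41 or 46 or Selfox 1, 2, 3, 4 or 6. Of 18 circadian clock genes 3 rose and 4 fell, the falls numbering 1 without Control 52 and 2 without Control 40, 41, 46 or 55, without Selfox 1, 2, 3, 4, 6, 7, 9 or 10, without Selfox 3, 4, 5 and 8 and at equal depth, and the rises 5 with DESeq2. The part of collection time in these values was not tested.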
